A study of Mus musculus with 7 samples.

Results

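The 10 genes described here are Fos, Fosb, Jun, Junb, Egr1, Atf3, Ier2, Dusp1, Nr4a1 and Btg2, immediate early and activity-responsive genes taken by symbol from the deposited count table. They are 10 of 35013 gene symbols, of which 20376 had a count in at least 1 library, and all 10 passed the filter on low counts in every comparison. RNA-seq was performed on β-cells sorted from the islets of 7 mice, each library from a different mouse. KO_db/db mice (n = 2) were Lepr db/db, homozygous for a mutation of the leptin receptor gene used as a model of diabetes. They had both Aldh1a3 alleles floxed (fl/fl), the reporter tdT fl/+ and the RIP-Cre(herr) transgene, in which the rat insulin promoter drives Cre. The study reports that fasting glucose in such knockout mice was similar to that of db/+ mice. It also reports lower glucose after refeeding and better glucose tolerance than in db/db mice. The db/db mice (n = 2) were Lepr db/db with Aldh1a3 fl/+ and the same Cre and reporter, and the lean db/+ mice (n = 3) were Lepr db/+ with Aldh1a3 fl/+, Cre and reporter. Both control groups therefore carried Cre, 1 floxed Aldh1a3 allele and the tdT reporter. Mice in the study were generally between 16 and 20 weeks old and of both sexes, and were fasted for 16 h before the islets were digested with collagenase for 16 min, dissociated with trypsin and sorted. The gate used for these libraries is not described, and no interval between death, dissociation and lysis is given.

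Libraries held between 27496645 and 35852785 counts. Aldh1a3 itself, the gene deleted in KO_db/db, was at 4.97 and 7.89 CPM (counts scaled to a common library size) in KO_db/db, 98.4 and 194 CPM in db/db, and 0.0729 to 0.589 CPM in db/+. Beta-cell markers, the insulin genes making up most of them, summed to between 201612 and 442753 CPM, so each library carried the labelled cell type. Of these 10 markers, 9 were lower in db/db and 7 in KO_db/db than in db/+ (adjusted p under 0.05, edgeR). The shares of all genes lower were 18.0% and 17.9%. Slc2a2 was at a mean of 98.0 CPM in db/db, 302 CPM in KO_db/db and 1141 CPM in db/+. KO_db/db mouse 1 stood apart, because 50 genes of acinar cells took 18.4% of its counts, against 2.09% in KO_db/db mouse 2 and 0.00731% to 0.0601% in the other 5 libraries. Of the markers of other cells, 7 of 8 stellate, 7 of 9 macrophage and 7 of 8 lymphocyte markers stayed under 1 CPM in every library, the exceptions including C1qa at 20.8 to 71.2 CPM and Cd79a at 0.998 to 39.8 CPM. Of 9 endothelial markers, 3 stayed under 1 CPM (Cdh5, Tie1 and Emcn), and the list summed to 21.3 and 26.5 CPM in db/db, 17.4 and 15.8 CPM in KO_db/db and 14.5 to 53.3 CPM in db/+. Of the 7 tested in db/db against db/+, 2 were higher and 0 lower (adjusted p under 0.05, edgeR), beside 19.9% of all genes higher. A fold change above 0 was seen in 5 of the 7. Flt1 and Plvap were at a mean of 1.22 and 2.85 CPM in db/db, against 0.184 and 0.569 CPM in db/+. Egfl7 went the other way, at 1.00 CPM in db/db and 1.63 CPM in db/+. The part of endothelial cells in the members' differences was not tested. Among other islet cells, the 6 alpha markers summed to 2526 and 2085 CPM in db/db, 1653 and 1180.3 CPM in KO_db/db and 1067 to 1699 CPM in db/+. In db/db, Ttr alone was at 1907 and 1716 CPM. The 6 delta and PP markers summed to 778 and 434, 1562 and 1196, and 532 to 2891 CPM in the same groups. The 8 ductal markers summed to 290.1 and 432, 305 and 347, and 186 to 202 CPM. Their part in the members' differences was not tested. In libraries of this kind, fewer cells of a type and less RNA per cell cannot be told apart.

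Immediate early genes are transcribed within minutes of a stimulus from factors that already sit in the cell, such as CREB and the serum response factor, and their RNA decays quickly. In β-cells, glucose metabolism, membrane depolarisation, calcium entry and cAMP are known inducers, and so are the stress and enzymatic digestion of tissue dissociation. The Fos and Jun proteins pair to form AP-1, a factor that switches on later genes, while genes such as Dusp1 and Btg2 restrain the signal.

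The members' RNA was highest in db/db, intermediate or variable in KO_db/db and lowest in db/+ for most of the genes. Summed over the 10 genes, the level was 2596 CPM in db/db mouse 1 and 1233 CPM in db/db mouse 2, 375 CPM in KO_db/db mouse 1 and 914 CPM in KO_db/db mouse 2, and between 359 and 412 CPM in db/+. In db/db, 8 of the 10 genes were higher than in db/+ (adjusted p under 0.05, edgeR's quasi-likelihood test over all genes), where 19.9% of all genes tested were higher. In KO_db/db, 4 of the 10 were higher than in db/+, beside a background of 20.5%. No member passed the test between KO_db/db and db/db, where 0.319% of all genes did. Fold changes below are on the log2 scale with the standard error, and gene positions are those of GENCODE vM21 on GRCm38.

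**Figure D1:**
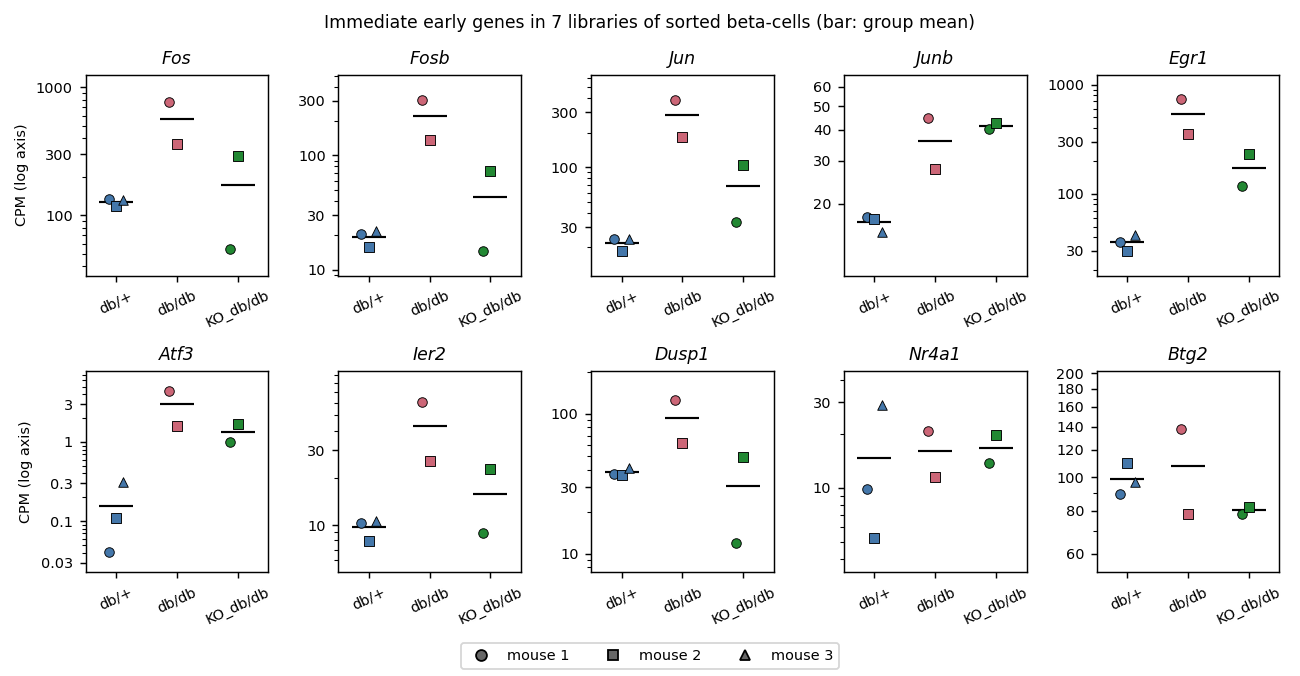
CPM of each of the 10 genes (log axis, a separate scale for each gene) in db/+ (blue), db/db (red) and KO_db/db (green); each symbol is 1 mouse and the bar is the group mean. Fos, Fosb, Jun, Egr1, Ier2 and Dusp1 were higher in both db/db libraries than in all 5 others, Junb and Atf3 were higher in all 4 Lepr db/db libraries than in the 3 db/+ libraries, and Nr4a1 and Btg2 overlapped between db/db and db/+.

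Among the AP-1 subunits, Fos (chr12:85473890-85477273, plus strand), the partner of Jun in the classical AP-1 dimer, was at 772 and 359.8 CPM in db/db, 55.1 and 290.2 CPM in KO_db/db and 134, 118 and 132 CPM in db/+. The 3 db/+ mice lay close together, both db/db mice lay above every other library, and KO_db/db mouse 1 was the lowest of all 7. Fos rose in db/db against db/+ by 2.13 ± 0.29 (adjusted p = 0.00251) and its RNA per kilobase of exon was the highest of the 10 genes there, at a mean of 241 CPM per kilobase. Against db/+, the change in KO_db/db was 0.44 ± 0.57 (adjusted p = 0.571), with 1 mouse on either side of db/+. With KO_db/db mouse 2 alone, Fos was higher than in db/+ by 1.18 (adjusted p = 0.00571), and with KO_db/db mouse 1 alone it was lower, at -1.22 (adjusted p = 0.00372). In these single-mouse fits the lone mouse is assumed to vary as the db/+ mice do.

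Fosb (chr7:19302696-19310051, minus strand), a Fos paralog whose products accumulate under repeated stimulation, followed the order of Fos. It was at 307 and 137 CPM in db/db, 14.7 and 72.4 CPM in KO_db/db and 20.4, 15.8 and 21.7 CPM in db/+. The db/db libraries were again above all others, and the KO_db/db libraries fell on both sides of db/+. Fosb rose in db/db against db/+ by 3.51 ± 0.33 (adjusted p = 0.000911), while the value for KO_db/db against db/+ was 1.19 ± 0.56 (adjusted p = 0.136). Without KO_db/db mouse 1 that value was 1.91 (adjusted p = 0.00441), and without mouse 2 it was -0.40 (adjusted p = 0.218).

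Jun (chr4:95049034-95052222, minus strand), the founding subunit of AP-1, was at 387 and 182 CPM in db/db, 33.2 and 104 CPM in KO_db/db and 23.6, 18.7 and 23.6 CPM in db/+. The groups did not overlap, in the order db/db, KO_db/db, db/+, and the share of all genes with this order was not counted. Jun rose in db/db by 3.68 ± 0.31 (adjusted p = 0.000697) and in KO_db/db by 1.65 ± 0.42 (adjusted p = 0.0214), both against db/+. The second call was lost without KO_db/db mouse 2 (0.59, adjusted p = 0.0509), without db/+ mouse 1 (1.70, adjusted p = 0.0568) and without db/+ mouse 2 (1.54, adjusted p = 0.0729), and with the replicate number as a block (adjusted p = 0.0953).

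Junb (chr8:84974484-84978718, minus strand), a subunit that can compete with Jun, behaved otherwise. It was at 44.7 and 27.6 CPM in db/db, 40.3 and 42.9 CPM in KO_db/db and 17.7, 17.3 and 15.3 CPM in db/+. Both KO_db/db mice lay between the 2 db/db mice, and all 4 were above db/+. Junb rose by 1.10 ± 0.21 in db/db (adjusted p = 0.00745) and by 1.32 ± 0.11 in KO_db/db (adjusted p = 0.000735). Both calls held under all 13 alternative settings tried for each comparison. The annotated Junb locus overlaps Prdx2 on the opposite strand, and Jun overlaps Junos. Prdx2 was at 63.9 to 97.3 CPM and lower in all 4 Lepr db/db libraries than in db/+, opposite to Junb. Whether the counting used strand is not given in the sources used here.

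The promoters of 8 of the 10 genes were matched in RefSeq on GRCm38.p6, as windows of 250 bases before to 50 bases after the start of transcription. The upstream bases of 4 are printed 5′ to 3′ on the gene's own strand, because Fos, Fosb and Jun rose in db/db and Btg2 did not pass the test there. Capitals mark matches on either strand to the cAMP response element TGACGTCA, to its core TGACG, which is also counted inside the full element, and to the TATA box TATAAA.
Fos, chr12:85473640-85473889, plus strand: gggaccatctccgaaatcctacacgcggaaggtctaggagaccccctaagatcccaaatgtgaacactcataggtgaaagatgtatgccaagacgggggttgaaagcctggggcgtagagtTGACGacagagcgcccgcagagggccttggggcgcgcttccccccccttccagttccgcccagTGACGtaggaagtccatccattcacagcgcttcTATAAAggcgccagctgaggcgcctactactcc
Fosb, chr7:19310052-19310295, minus strand: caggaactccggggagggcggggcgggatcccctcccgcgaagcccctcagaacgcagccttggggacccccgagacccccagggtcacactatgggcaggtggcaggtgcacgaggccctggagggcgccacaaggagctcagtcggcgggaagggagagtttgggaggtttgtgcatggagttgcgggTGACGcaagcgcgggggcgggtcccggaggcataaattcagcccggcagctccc
Jun, chr4:95052223-95052472, minus strand: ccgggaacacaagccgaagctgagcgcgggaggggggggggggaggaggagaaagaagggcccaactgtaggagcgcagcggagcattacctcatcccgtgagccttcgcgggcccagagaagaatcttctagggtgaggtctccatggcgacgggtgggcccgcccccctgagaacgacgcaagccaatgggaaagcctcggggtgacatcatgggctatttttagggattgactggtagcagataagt
Btg2, chr1:134079156-134079405, minus strand: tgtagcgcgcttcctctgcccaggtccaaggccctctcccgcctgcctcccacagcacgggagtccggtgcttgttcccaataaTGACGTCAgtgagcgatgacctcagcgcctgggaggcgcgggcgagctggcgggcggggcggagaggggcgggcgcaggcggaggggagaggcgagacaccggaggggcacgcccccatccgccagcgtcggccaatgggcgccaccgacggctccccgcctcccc
The core TGACG was found in 7 of the 8 windows, Jun being the exception, while 20.8% of all 32851 promoters held it. Counting the start as 0, Fos held it at -129 and -66 with a TATA box at -33, and Fosb held it at -60. The full element was in Btg2 at -166 and in Dusp1 at -143, and in 1.79% of all promoters. Jun had no exact match in this window to the element or its core. Words that differ from these by a base were not counted, and whether any site acts in these cells was not tested. The AP-1 site TGANTCA (7.81% of all promoters), the CArG box bound by the serum response factor (1.63%) and the Nr4a site AAAGGTCA (1.51%) matched in 0 of the 8 windows. Sites more than 250 bases upstream were not searched, and Egr1 and Ier2 had no matched promoter, so such sites may exist outside these windows. The site of the EGR factors, GCGNGGGCG (5.55% of all promoters), was in the windows of Btg2, Fosb and Nr4a1.

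Egr1, a zinc finger factor induced by ERK signalling and by glucose in β-cells, separated all 3 groups. It was at 736 and 349 CPM in db/db, 118 and 230.1 CPM in KO_db/db and 36.3, 29.8 and 41.9 CPM in db/+. As for Jun, every db/db library was above every KO_db/db library, and every KO_db/db library above db/+. Taken singly, the first pattern held for 29.1% of all genes and the second for 31.7%. The share with both was not counted. Egr1 rose by 3.90 ± 0.32 in db/db (adjusted p = 0.000673) and by 2.28 ± 0.28 in KO_db/db (adjusted p = 0.00197), against db/+. The latter was 1.70 without KO_db/db mouse 2 and 2.68 without mouse 1, and was called under all 13 alternatives.

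Atf3 (chr1:191170296-191218039, minus strand), a stress-induced factor of the ATF family, was scarce. Its counts were 149 and 66 in db/db, 24 and 70 in KO_db/db and 1, 3 and 9 in db/+, corresponding to 4.37 and 1.58, 0.985 and 1.70, and 0.0409, 0.109 and 0.312 CPM. Of the db/+ libraries, 1 was under the floor of 3 counts, and the size of the fold rests on these few counts. Atf3 rose by 4.19 ± 0.78 in db/db (adjusted p = 0.00739) and by 3.07 ± 0.76 in KO_db/db (adjusted p = 0.0199). The call in KO_db/db was lost without KO_db/db mouse 1 (3.40, adjusted p = 0.051), without KO_db/db mouse 2 (2.61, adjusted p = 0.130) and without db/+ mouse 2 (2.87, adjusted p = 0.0631), while the change kept its direction.

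Ier2 (chr8:84661331-84662852, minus strand), a nuclear protein induced by growth factors, was at 60.5 and 25.5 CPM in db/db, 8.91 and 22.7 CPM in KO_db/db and 10.4, 7.95 and 10.7 CPM in db/+. It rose in db/db against db/+ by 2.13 ± 0.34 (adjusted p = 0.0044). KO_db/db mouse 1 was within the range of db/+ and mouse 2 above it, and the value for KO_db/db was 0.72 ± 0.37 (adjusted p = 0.162). With KO_db/db mouse 2 alone it was 1.23 (adjusted p = 0.0132). Ier2 and Junb lie 311632 bases apart on chromosome 8.

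Nr4a1 (chr15:101254269-101274795, plus strand), an orphan nuclear receptor induced by cAMP and calcium, did not separate the groups. It was at 20.7 and 11.5 CPM in db/db, 13.8 and 19.6 CPM in KO_db/db and 9.78, 5.25 and 28.8 CPM in db/+. Its highest and lowest values were both in db/+. The values against db/+ were 0.12 ± 0.66 in db/db (adjusted p = 0.902) and 0.20 ± 0.63 in KO_db/db (adjusted p = 0.820). They rest on db/+ mouse 3, without which Nr4a1 in KO_db/db was 1.17 higher than in db/+ (adjusted p = 0.0423).

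Of the genes that restrain signalling, Dusp1 (chr17:26505590-26562128, minus strand), a phosphatase that inactivates MAP kinases, was at 126 and 61.8 CPM in db/db, 11.9 and 48.9 CPM in KO_db/db and 36.4 to 41.0 CPM in db/+. It rose in db/db by 1.29 ± 0.27 (adjusted p = 0.011), a call that was lost when all 7 libraries shared 1 fit (1.30, adjusted p = 0.0795). The 2 KO_db/db mice lay on either side of db/+, and the value was -0.31 ± 0.49 (adjusted p = 0.649). With KO_db/db mouse 1 alone Dusp1 was lower than in db/+, at -1.69 (adjusted p = 0.00227), and with mouse 2 alone the value was 0.36 (adjusted p = 0.0838). Dusp1 overlaps Ergic1 on the opposite strand, which was at 101 to 135 CPM in the 7 libraries.

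Btg2 (chr1:134075170-134079120, minus strand), an antiproliferative gene that promotes mRNA decay, was at 138 and 78.1 CPM in db/db, 78.4 and 81.9 CPM in KO_db/db and 89.4, 109.6 and 97.0 CPM in db/+. It had the narrowest range of the 10 genes, with the highest library 1.77 times the lowest. The value in db/db against db/+ was 0.12 ± 0.23 (adjusted p = 0.721), and in KO_db/db -0.29 ± 0.11 (adjusted p = 0.0733), where both libraries were below all 3 of db/+, as for 32.5% of all genes. Per kilobase of exon, Btg2 in db/+ was at 32.6 to 40.0 CPM in the 3 libraries, and the means of the other genes in db/+ were 54.5 for Fos, 11.5 for Dusp1, 8.03 for Egr1, 7.28 for Junb, 6.90 for Jun, 6.37 for Ier2, 4.16 for Nr4a1, 3.09 for Fosb and 0.0715 for Atf3. Fos and Btg2 were thus the most abundant of the set in lean cells, and the order in db/db was Fos, Egr1 (121 CPM per kilobase), Jun (89.1), Btg2 (39.4) and Fosb (35.5).

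**Figure D2:**
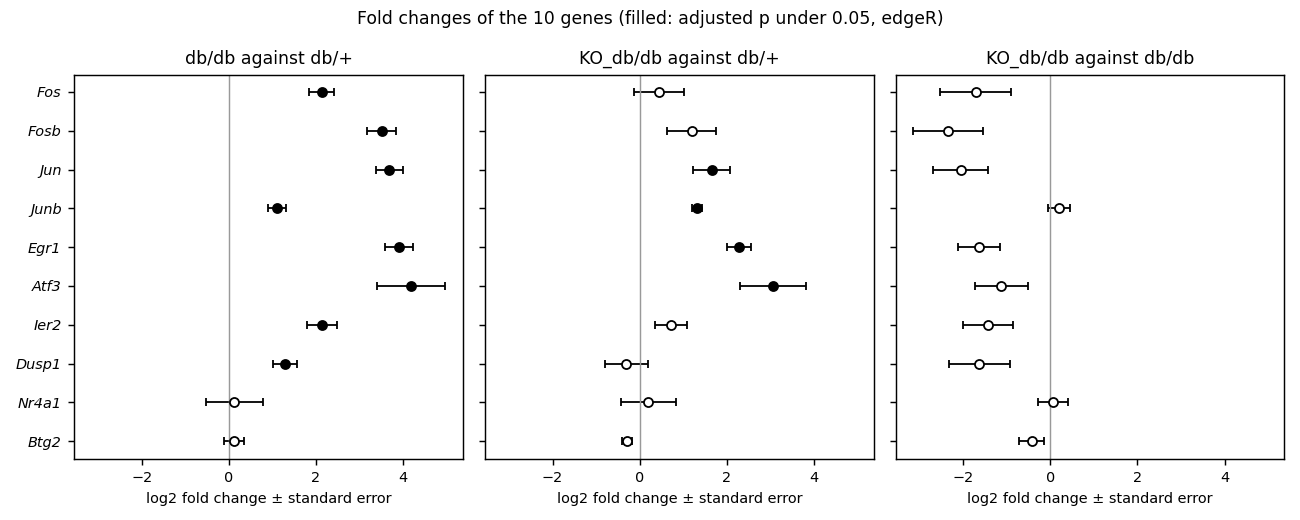
Log2 fold changes with standard errors for the 10 genes in the 3 comparisons; filled points had an adjusted p under 0.05 in edgeR's quasi-likelihood test. All 8 called genes in db/db against db/+ lie between 1.10 and 4.19, 4 of the 10 are called in KO_db/db against db/+, and 0 of the 10 in KO_db/db against db/db.

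Set against all genes, the median change of the 10 members from db/+ was 2.13 in db/db, where the median over all 13406 genes tested was 0.01. The 8 genes called higher were also the 8 whose db/db libraries were all above db/+, which held for 32.6% of all genes. Without db/db mouse 1 the median was 1.43. In KO_db/db against db/+ the median change was 0.96 over the members and 0.00 over all genes, with Jun, Junb, Egr1 and Atf3 called, the same 4 genes whose KO_db/db libraries were both above db/+ (31.7% of all genes). Without KO_db/db mouse 2 the median over the members was -0.11, with Junb at 1.26, Egr1 at 1.70, Fos at -1.22 and Dusp1 at -1.69. Without KO_db/db mouse 1 the median was 1.30, with Junb at 1.36, Egr1 at 2.68, Fos at 1.18 and Dusp1 at 0.36. Without db/+ mouse 2 only Junb and Egr1 were called, in a fit that called 2048 of 13091 genes higher. The comparisons with db/+ share the 3 db/+ libraries.

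The effect of Aldh1a3 deletion in Lepr db/db mice is addressed by KO_db/db against db/db. The members' median change was -1.53, against -0.02 over all genes, and 6 members (Fos, Fosb, Jun, Egr1, Ier2 and Dusp1) had both KO_db/db mice below both db/db mice, a pattern seen in 29.1% of all genes. Their values ran from -2.35 ± 0.80 for Fosb (adjusted p = 0.198) and -2.06 ± 0.63 for Jun (adjusted p = 0.172) to -1.43 ± 0.58 for Ier2 (adjusted p = 0.243), with Fos at -1.72 ± 0.81, Egr1 at -1.64 ± 0.48 and Dusp1 at -1.63 ± 0.70. Junb was at 0.20 ± 0.25 (adjusted p = 0.665) and Nr4a1 at 0.06 ± 0.34 (adjusted p = 0.939). None of the 10 was called by edgeR or by DESeq2, while 3 (Fosb, Jun and Egr1) had an unadjusted p under 0.05, as did 20.9% of all genes. Only 0.319% of all genes, 43 of 13486, passed the adjusted threshold in either direction. When genes of low count were not filtered, these 6 members passed it, with adjusted p from 0.000731 to 0.0192, in a fit that called 3.90% of all genes lower.

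Within db/db and within KO_db/db, the same mouse was the higher for every member. In db/db, mouse 1 exceeded mouse 2 in 10 of 10 genes, by 1.62-fold (Junb) to 2.77-fold (Atf3) with a median of 2.12. In KO_db/db, mouse 2 exceeded mouse 1 in 10 of 10, by 1.04-fold (Btg2) to 5.26-fold (Fos) with a median of 2.25. There Btg2 and Junb (1.06-fold) were nearly equal in the 2 mice. In db/+ the highest library exceeded the lowest by a median of 1.31-fold, from 1.13 for Fos and Dusp1 to 5.48 for Nr4a1 and 7.61 for Atf3. The genes of 1 library are not independent measurements, and these counts describe the libraries. The share of all genes with the same order of mice was not counted. A shift of the whole library therefore cannot be told from a trait of the members.

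Ratios between members in the same library do not depend on its scaling, and they are given as a description, without a test. Fos over Egr1, in CPM, was 3.70, 3.97 and 3.15 in db/+, 1.05 and 1.03 in db/db, and 0.468 and 1.26 in KO_db/db. Fos over Jun was 5.58 to 6.33 in db/+ and 1.66 to 2.80 in the 4 Lepr db/db libraries. Fosb over Fos was 0.397 and 0.381 in db/db, 0.267 and 0.249 in KO_db/db and 0.133 to 0.165 in db/+, so the 3 groups did not overlap. The pair of mice within each Lepr db/db group were close although their Fos levels were far apart. How often ratios of other genes separate in this way was not counted. Junb over Jun was 0.116 and 0.152 in db/db, 1.22 and 0.414 in KO_db/db and 0.647 to 0.922 in db/+.

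**Figure D3:**
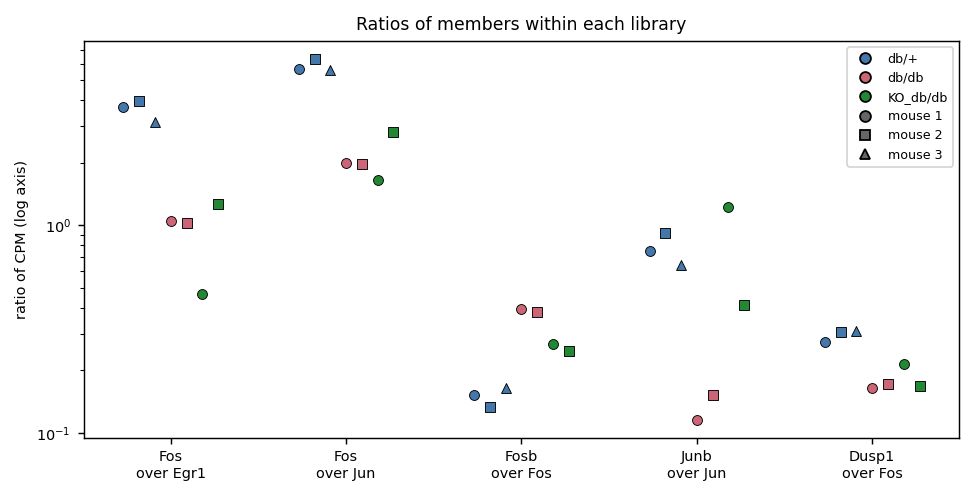
Ratio of the CPM of 2 members within each library (log axis), with 1 symbol per mouse, db/+ in blue, db/db in red and KO_db/db in green. Fos over Egr1 lies between 3.15 and 3.97 in db/+ and between 0.468 and 1.26 in the other 4 libraries, and Fosb over Fos forms 3 groups that do not overlap.

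The wider pathway was described through other gene lists, beside a background of 19.9% higher and 18.0% lower in db/db and of 20.5% higher and 17.9% lower in KO_db/db, both against db/+. Of 22 other immediate early factors tested, 13 rose and 3 fell in db/db against db/+ (median 1.30), and 6 of 20 rose and 3 fell in KO_db/db (median 0.79). Arc, an activity-regulated gene best known from synapses, was at 63.7 and 35.1 CPM in db/db, 4.76 and 26.1 CPM in KO_db/db and 1.76 to 2.60 CPM in db/+, and rose by 4.42 ± 0.30 in db/db (adjusted p = 0.000447) and by 2.77 ± 0.63 in KO_db/db (adjusted p = 0.0153). Egr2, an Egr1 paralog, was at 5.37 and 2.44 CPM in db/db and 0.104 to 0.123 CPM in db/+. Klf4, a Krüppel-like factor, rose by 4.66 ± 0.41 in db/db (adjusted p = 0.000766). Npas4, a calcium-induced factor of neurons and β-cells, was at 33.5 and 8.46 CPM in db/db, 2.42 and 14.2 CPM in KO_db/db and 6.75 to 9.17 CPM in db/+, and passed no test. Gadd45b, a stress-induced regulator of growth arrest, moved the other way in both groups, and fell by 1.45 ± 0.44 in db/db (adjusted p = 0.041) and by 3.23 ± 0.38 in KO_db/db (adjusted p = 0.00171).

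Of 24 feedback inhibitors of the MAP kinase, cAMP and related pathways tested, 14 rose, 1 fell and 9 did not pass the test in db/db against db/+ (median 0.70). In KO_db/db, 12 rose, 1 fell and 11 did not pass (median 0.60). The gene that fell in both was Dusp10, a phosphatase of stress-activated kinases, by 1.22 ± 0.18 in db/db and by 0.40 ± 0.13 in KO_db/db. Sik1, a kinase induced by cAMP that inactivates CREB coactivators, was at 8.34 to 12.3 CPM in the 4 Lepr db/db libraries and 0.511 to 1.42 CPM in db/+. It rose by 3.41 ± 0.41 (adjusted p = 0.00165) in db/db and by 3.46 ± 0.37 (adjusted p = 0.00132) in KO_db/db, and like Junb it differed little between the 2 KO_db/db mice. Zfp36, an RNA-binding protein that destabilises early transcripts, rose by 2.06 ± 0.24 in db/db (adjusted p = 0.00152) and by 0.99 ± 0.13 in KO_db/db (adjusted p = 0.00222). Per1, a clock gene with cAMP response elements, was at 125 and 79.6 CPM in KO_db/db, 31.2 and 70.4 CPM in db/db and 12.2 to 16.5 CPM in db/+.

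The other AP-1 and ATF factors showed no common direction. Of 12 tested, 4 rose and 5 fell in db/db (median -0.08), and 5 rose and 3 fell in KO_db/db (median 0.22). Jund, the constitutive Jun paralog, rose by 1.13 ± 0.14 in db/db (adjusted p = 0.00175), and Fosl2, a late Fos paralog, by 1.79 ± 0.48 (adjusted p = 0.0265). Atf5, a survival factor of β-cells under stress, fell by 1.80 ± 0.12 in db/db (adjusted p = 0.000447). Of 28 upstream kinases and factors, 9 rose and 5 fell in db/db and 11 rose and 6 fell in KO_db/db, with medians of 0.06 and 0.21. Mrtfb, a coactivator of the serum response factor, led those that rose in db/db, by 2.38 ± 0.20 (adjusted p = 0.000695). Between KO_db/db and db/db, 0 of the 85 genes tested in these 4 lists were called by edgeR, while 18 had an unadjusted p under 0.05 and DESeq2 called 3 higher and 6 lower, where it called 5.53% of all genes higher and 4.66% lower. Egr2, Klf4, Dusp6 and Zfp36 were among the 6.

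Genes that report on metabolic state and on handling were set beside the members. Of 15 glucose-responsive genes, 10 rose and 2 fell in db/db against db/+ (median 1.15), and 5 rose and 4 fell in KO_db/db (median 0.24). Txnip, a thioredoxin inhibitor induced by glucose through ChREBP, was at 1802 and 1276 CPM in db/db, 392 and 119 CPM in KO_db/db and 232, 145 and 209 CPM in db/+, and rose in db/db by 2.96 ± 0.24 (adjusted p = 0.000681). Arrdc4, a related arrestin-like gene under the same control, was at 104 and 50.2 CPM in db/db, 13.6 and 17.8 CPM in KO_db/db and 7.82 to 10.7 CPM in db/+. For Txnip in KO_db/db the order of the mice was the reverse of that of the members, with Txnip higher in mouse 1. Of 17 calcium and depolarisation-responsive genes, 8 rose and 2 fell in db/db (median 1.25), and 4 of 15 rose and 5 fell in KO_db/db (median 0.03). These lists overlap with those above. Arc, Egr2, Sik1 and Per1, which are among the 8, were already counted there, as were Crem, Npas4, Nr4a2 and Egr3. Klf10 was both a glucose-responsive gene and an immediate early factor.

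Of 16 heat shock and dissociation genes, 6 rose and 3 fell in db/db (median 0.08), and 4 rose and 4 fell in KO_db/db (median 0.05). Hspa1a and Hspa1b, the stress-inducible chaperones of the Hsp70 family, are near-identical copies whose reads may be split between them, and their sum was 1248 and 391 CPM in db/db, 82.3 and 234 CPM in KO_db/db and 78.8, 50.9 and 76.4 CPM in db/+. Their order among the libraries was close to that of Fos and Jun, with db/db mouse 1 highest and KO_db/db mouse 2 above mouse 1. Hspa1a rose in db/db by 3.67 ± 0.49 (adjusted p = 0.0023). Dnajb1, the partner of Hsp70 induced in the same response, was at 135 and 68.1 CPM in db/db, 17.0 and 40.8 CPM in KO_db/db and 42.0 to 52.6 CPM in db/+. The heat shock list as a whole did not move in 1 direction in db/db, while Hspa1a, Hspa1b and Hspb1 led it and rose.

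Of 12 targets of ATF4 and CHOP tested in db/db, 2 rose and 6 fell (median -0.61), and of 13 in KO_db/db 3 rose and 3 fell (median 0.27). Ppp1r15a, an inducible phosphatase subunit of the stress response, was at 87.3 and 74.0 CPM in db/db, 62.4 and 60.7 CPM in KO_db/db and 19.1 to 26.3 CPM in db/+, and rose in both groups. It was 1 of the 2 that rose in db/db, while Atf5, which is in this list too, was among the 6 that fell. Mitochondrial transcripts took 7.07% and 8.15% of counts in db/db, 6.94% and 10.8% in KO_db/db and 11.6% to 20.5% in db/+. The acinar share was highest in KO_db/db mouse 1, the library with the lowest Fos, Fosb and Dusp1. Recomputing with acinar genes left out kept the number of members called at 8, 4 and 0 in the 3 comparisons. That step cannot remove reads of the members themselves that may come from acinar cells, so their part was not tested. Txnip, Arrdc4 and the Hsp70 genes were thus highest in db/db, as most of the members were, while the mitochondrial share was highest in db/+ and the acinar share in KO_db/db mouse 1. Whether metabolic state or handling of the islets had a part in the members' differences was not tested. Over the 8 lists together, 136 genes were tested between KO_db/db and db/db, of which edgeR called 0, 41 had an unadjusted p under 0.05, and DESeq2 called 7 higher and 17 lower, beside the same 5.53% and 4.66% of all genes. Slc2a2, the glucose transporter, was among the 7, and Txnip, Arrdc4 and Hspb1 were among the 17. The labels give no date, order of collection or time from dissociation to lysis.

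**Figure D4:**
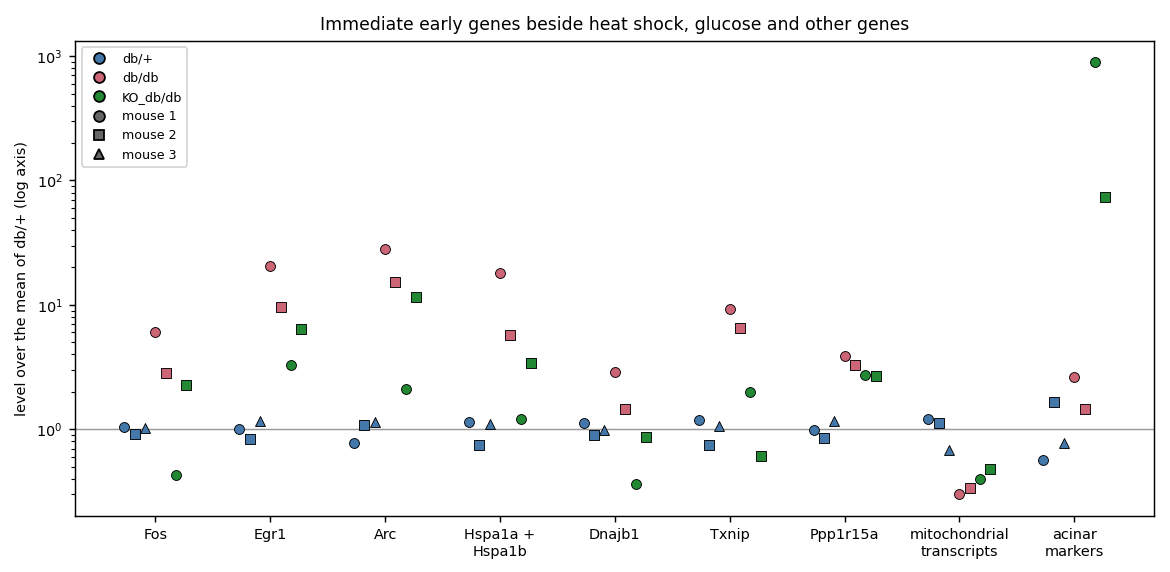
Level in each library divided by the mean of the 3 db/+ libraries (log axis) for Fos and Egr1 beside Arc, Hspa1a plus Hspa1b, Dnajb1, Txnip and Ppp1r15a, and beside the summed mitochondrial transcripts and acinar markers. Ppp1r15a is 1 of the 2 that rose in db/db among 12 targets of ATF4 and CHOP tested, of which 6 fell. In db/db mouse 1 and mouse 2, Fos was 6.03 and 2.81 times, Egr1 20.4 and 9.69 times, Hspa1a plus Hspa1b 18.2 and 5.69 times and Txnip 9.21 and 6.53 times the db/+ mean, and in KO_db/db mouse 1 and mouse 2 Txnip was 2.01 and 0.610 times while Fos was 0.430 and 2.26 times.

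The 5 genes whose pattern was most like the members' mean log2 CPM, among 7635 genes with a mean of at least 10 CPM, were Rab4a (r = 0.995), Ankle2 (r = 0.993), Hspa1a (r = 0.989), Eif2ak2 (r = 0.988) and Cactin (r = 0.987). These correlations are over 7 libraries that fall into groups, and describe likeness only. Rab4a, a GTPase of endosomal recycling, was at 61.2 and 40.6 CPM in db/db, 25.3 and 36.8 CPM in KO_db/db and 20.1 to 24.4 CPM in db/+. Arc had r = 0.969 and rank 25. Among the heat shock genes, Hspa1b had r = 0.984 and rank 6, and Bag3 r = 0.934 and rank 106. Hspb1, the small heat shock protein, had r = 0.912 and rank 205, and Dnajb1 r = 0.681 and rank 1429. Among the glucose-responsive genes, Arrdc4 had r = 0.923 and rank 147, Txnip r = 0.710 and rank 1295, and Rgs16 r = 0.641 and rank 1624. The other genes of the heat shock and glucose-responsive lists were not ranked here, so these values do not describe the lists as a whole.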

How the data were processed

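The authors prepared poly-A libraries, read as paired ends, and per the labels deposited estimated counts per gene from kallisto 0.44.0 on GRCm38 after bcl2fastq 2.19, rounded and not normalized. The annotation release and the strand setting are not given in the sources used here. The 10 members and the other lists were chosen with earlier results of these data known. Samples were grouped by the genotype in their labels, and 0 columns were left unused.

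From the deposited expected counts, every comparison was fitted separately, using only its 2 groups, by edgeR 4.0.16 in R 4.3.3 (filterByExpr minimum count 10, TMM scaling, quasi-likelihood test, Benjamini-Hochberg adjustment, threshold 0.05). Standard errors are the log2 fold change over the root of F. CPM were TMM-scaled across the 7 libraries, and 3 counts were taken as the floor. DESeq2 1.42.0, the study's tool, was an alternative, as were other scalings, no filter, 1 fit of all libraries, the replicate block, omission of acinar or insulin genes, and omission of each library. Fits were tested on simulated data. A chi-square check for a library deposited in duplicate found none.

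All 10 members were named. Of each other list, up to 3 called genes with the largest change and a mean of at least 1 CPM were eligible, together with genes the members' results turn on. Npas4, Dnajb1, Txnip, Bag3 and Rgs16 were named after their values were seen. Some other genes, such as Flt1, Egfl7, Dusp6 and Dusp10, were also named outside this rule, and not every eligible gene was named. Genes most like the members were taken by the highest Pearson r, predicted genes and pseudogenes excluded. Coordinates and exon lengths came from GENCODE vM21 and promoters from RefSeq.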

Additional observations from a re-analysis of the deposited data

How the results depend on the processing

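The number of members called in db/db against db/+ stayed at 7 to 9 of 10 under all 13 alternatives, all higher. In KO_db/db against db/+ it was 2 to 6 of 10, all higher except without KO_db/db mouse 2, when 2 were higher and 2 lower, and it was 2 without db/+ mouse 2. In KO_db/db against db/db it was 6 without the low-count filter, 0 to 1 with a library left out and 0 otherwise. Over all genes in that comparison, 43 were called, against 1374 by DESeq2, 1570 without the filter, 818 with all 7 libraries in 1 fit, 67 with acinar genes left out, 22 with the replicate block, and 0 to 225 with a library left out, the lowest being without db/db mouse 1. The cause was not tested. With a library left out, all genes called ran from 3331 to 4394 in db/db against db/+ (5069 with all libraries) and from 3060 to 4725 in KO_db/db against db/+ (5081), fewer samples being fitted. The members' median ran from 1.43 to 2.60 in db/db and from -0.11 to 1.30 in KO_db/db against db/+. In KO_db/db against db/db it ran from -2.23 without KO_db/db mouse 2 to -0.84 without db/db mouse 1.

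With a library left out, some single genes changed sign. In KO_db/db against db/db the ranges were -0.11 to 0.59 for Junb, -0.31 to 0.54 for Nr4a1 and -0.79 to 0.03 for Btg2. In db/db against db/+ they were -0.36 to 1.09 for Nr4a1 and -0.35 to 0.47 for Btg2. In KO_db/db against db/+ they were -1.22 to 1.18 for Fos, -0.40 to 1.91 for Fosb, -0.13 to 1.23 for Ier2, -1.69 to 0.36 for Dusp1 and -0.20 to 1.17 for Nr4a1.

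The mouse numbers are only numbers: same-numbered libraries had correlations of their deviations from -0.102 to 0.076. With the replicate block, 9, 3 and 0 members were called in db/db against db/+, KO_db/db against db/+ and KO_db/db against db/db, Nr4a1 being added in the first (1.10, adjusted p = 0.00596) and Jun lost in the second. Of the 30 levels by gene and group, 4 moved by more than 1 SD with CPM on total counts and 1 with acinar genes left out of the library sizes. Depth limited Atf3 in db/+, where counts were 1 to 9.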
